A study of Homo sapiens with 9 samples.

Results

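The genes described here are 43 named genes of mitosis and the kinetochore, chosen from a list of symbols: the mitotic cyclins and CDK1, the chromosomal passenger complex, the spindle checkpoint, the centromere and outer kinetochore, condensin, cohesion protectors, spindle kinases and their partners, cytokinesis genes and the mitotic exit machinery. Of these, 39 had a probe set of their own among the 14232 genes measured. BUB1B, CENPN, NCAPG and SMC4 were represented only by probe sets shared with another gene, so they have no value here. RNA came from PANC-1 cells, a human pancreatic carcinoma line, on 9 arrays in 3 groups of 3 replicates. Non-transfected cells had received Lipofectamine RNAiMAX without RNA, the negative control group a control mimic at 20 nM, and the miR-520f group the mimic of that microRNA at 20 nM. All RNA was taken at 72 h. Both mimic groups thus carried RNA and lipid, while the non-transfected group carried lipid alone. PANC-1 is a single cancer line, and nothing in the labels beyond the word biological says that replicates were separate cultures, so p-values measure only the spread between these arrays.

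Entry into mitosis is driven by CDK1 bound to cyclin A or cyclin B. The kinetochore, a protein layer built on centromeric chromatin, captures spindle microtubules, and the spindle checkpoint holds back the anaphase-promoting complex until every kinetochore is attached. Transcripts of this machinery accumulate in the late phases of the cell cycle through promoter elements called CHR and CCAAT, and in tumour cell lines they are commonly read as a measure of how many cells are cycling. A microRNA lowers target transcripts that pair with its seed, bases 2 to 8 of the mature strand.

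The labels name miR-520f without an arm, so both mature strands are shown to let a reader see which seeds the mimic could carry. They are given 5′ to 3′ from RefSeq (GRCh38.p14), with the seed in capitals. Matches of either seed in the genes below were not analysed here.
hsa-miR-520f-5p (chr19:53682173-53682194, plus strand): cCUCUAAAgggaagcgcuuucu
hsa-miR-520f-3p (chr19:53682213-53682234, plus strand): aAGUGCUUccuuuuagaggguu

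The values are log2 signals after RMA, which puts all arrays on a common distribution, and a log2 difference of 1 is a doubling. Array medians lay between 4.22 and 4.34. The 39 genes were in the brighter part of the array, from the 53.3 percentile of all genes (CDCA2) to the 99.3 percentile (ANLN), averaged over the 9 arrays. Of the epithelial markers KRT8, KRT18 and KRT19 were bright in all groups, with group means from 8.16 to 11.6, and KRT7 was dim at a mean of 3.46 in non-transfected cells. KRT19 fell with miR-520f, by 0.75 against non-transfected cells and by 0.68 against the negative control (adjusted p = 0.000121 and 0.000239), and KRT18 rose by 0.41 over non-transfected cells (adjusted p = 0.00879). Of 10 markers of leukocytes, fibroblasts, endothelium, acinar and endocrine cells, 9 were low, with group means from 2.76 (LUM) to 3.93 (CD14). The other, the collagen gene COL1A1, was bright, with means of 8.17 in non-transfected cells, 7.58 with the negative control and 7.78 with miR-520f, and fell with the negative control (adjusted p = 0.0416), while the fibroblast genes DCN and LUM were low in every group. What these marker changes contribute to the results was not tested. Negative control replicate 1 stood farthest from its group mean over all genes, with a root mean square deviation of 0.169, where the lowest of the 9 arrays had 0.0698. With 3 arrays a group, precision is limited throughout.

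Across the 39 genes, most mitotic transcripts were higher in the miR-520f group than in non-transfected cells. Fewer were higher than in the negative control group. CCNB1, CENPF and PRC1 went the other way against both controls. The general rise and the falls of CCNB1 and CENPF were known from these data when the genes were chosen. The counts therefore describe these arrays and are no independent test. Against non-transfected cells 32 of 39 rose, 3 fell and 4 did not pass the test (limma, adjusted p under 0.05 over all genes), where 14.5% of all genes were called higher and 13.1% lower. The median log2 difference of the 39 was 0.77, against -0.03 over all genes. Against the negative control 18 rose, 3 fell and 18 did not pass, beside 15.4% and 12.6% of all genes, and the median difference was 0.36, against -0.03. RNA of a whole culture was measured, so a change in the share of cells in mitosis and a change in RNA per cell cannot be told apart.

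The negative control mimic itself moved these genes. Against non-transfected cells, 19 of 39 were higher in the negative control group, 1 was lower and 19 did not pass, where 7.00% of all genes were called higher and 8.28% lower. The median difference was 0.37, against 0.01 over all genes. This count is the least stable of the 3. Without non-transfected replicate 2, 11 members were called, 10 of them higher. In a fit without moderation 7 were called, 6 of them higher. Calls over all genes also dropped in these fits, from 2174 to 1394 and 1287. The 3 comparisons share arrays pairwise, so their values are set side by side below and not related to each other.

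Summarised on each array as the median of the 39 genes relative to their non-transfected means, non-transfected arrays lay between -0.10 and 0.08, negative control arrays between 0.33 and 0.41, and miR-520f arrays between 0.65 and 0.84. The groups did not overlap on this measure. The same median over all genes lay between -0.04 and 0.04 on the 9 arrays. Non-transfected arrays lie near 0 by construction, since their own means are subtracted. Called against both controls in the same direction were 17 higher and 3 lower members, where 9.37% and 8.61% of all genes were called in this way. In 18 members all 3 miR-520f arrays lay above all 6 control arrays and in 3 they lay below them, against 13.2% and 12.1% of all genes.

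**Figure D1:**
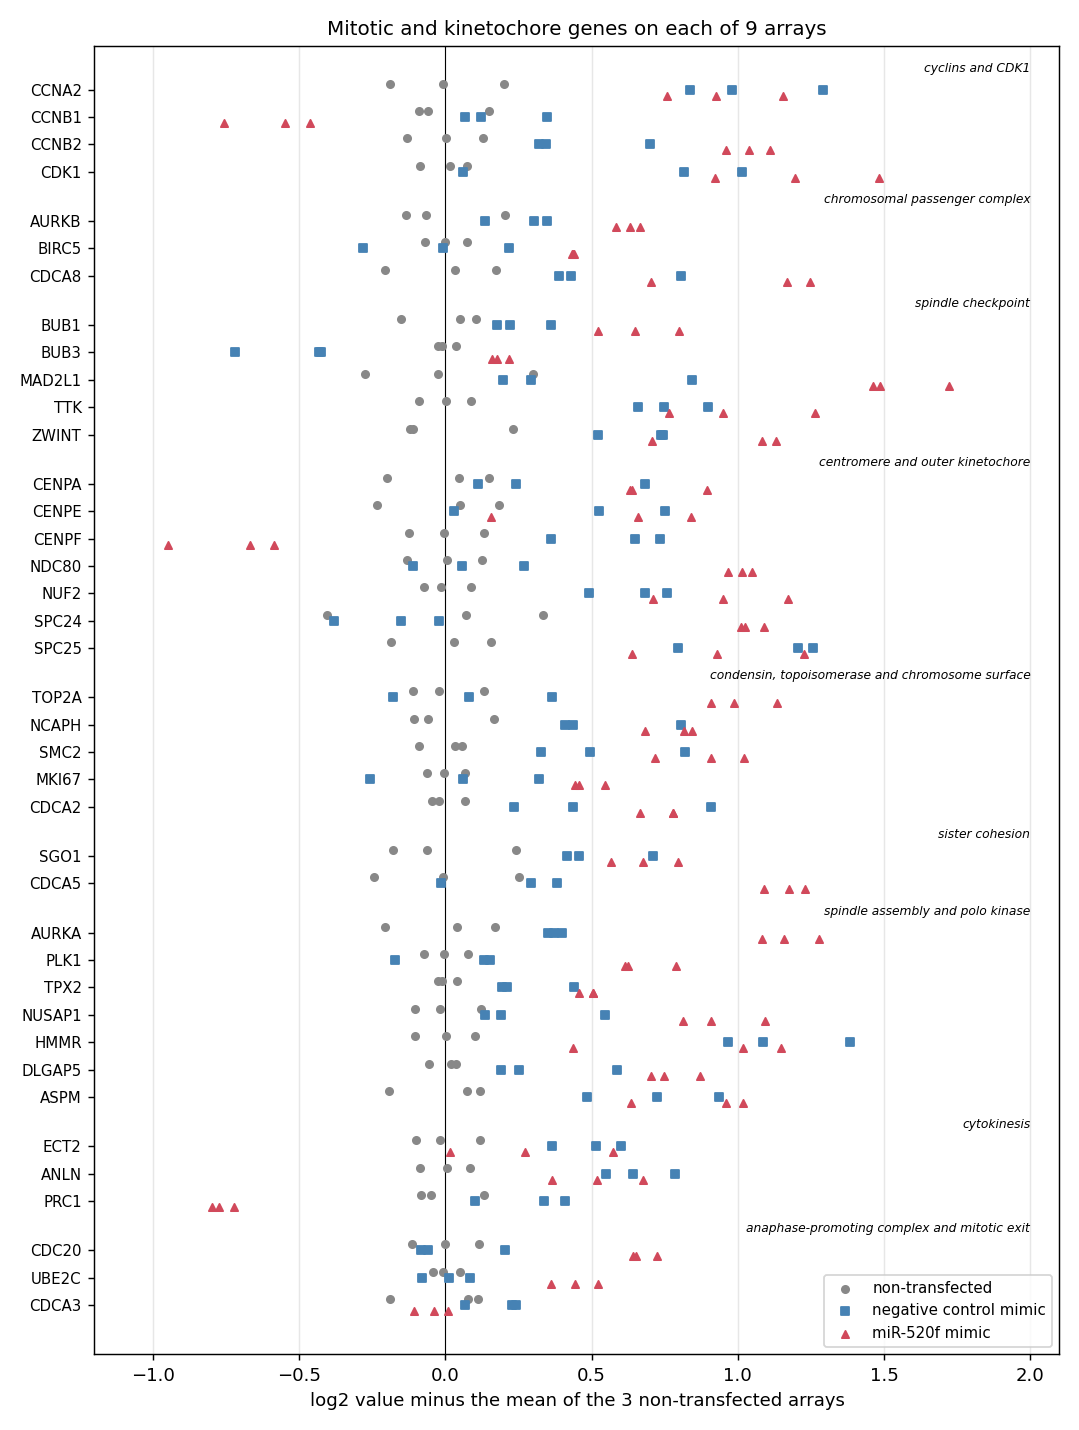
Each of the 39 genes has a row, grouped by role, with 1 point for each of the 9 arrays at its log2 signal minus the gene's mean in non-transfected cells (horizontal axis), and colour and marker show the group. In the rows of CCNB1, CENPF and PRC1 the 3 miR-520f points lie left of all control points, and in 18 other rows they lie right of them.

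The mitotic cyclins did not move as a block. Cyclin B1, whose gene CCNB1 encodes the main partner of CDK1 at mitotic entry, was measured by probe set 2813414. Its signal was 7.89, 7.65 and 7.68 in non-transfected cells, 8.09, 7.81 and 7.86 with the negative control and 7.19, 6.98 and 7.28 with miR-520f. The 3 miR-520f arrays were the lowest, and the control groups overlapped each other. CCNB1 fell by 0.59 on the log2 scale (SE 0.11) against non-transfected cells (adjusted p = 0.00155) and by 0.77 against the negative control (adjusted p = 0.000247), to 0.665 and 0.587 of the control signals. Its difference between the control groups was 0.18 (95% interval -0.06 to 0.41, adjusted p = 0.353).

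Cyclin B2, the second B-type cyclin and a CDK1 partner associated with the Golgi, moved the opposite way. CCNB2 (probe set 3595979) read 6.97, 7.10 and 7.23 in non-transfected cells, 7.42, 7.44 and 7.80 with the negative control and 8.14, 8.06 and 8.21 with miR-520f. The 3 groups did not overlap and miR-520f was highest. CCNB2 rose 2.05-fold against non-transfected cells (log2 1.04, SE 0.11, adjusted p = 3.90e-05) and 1.50-fold against the negative control (adjusted p = 0.00196). The negative control was also higher than non-transfected cells by 0.45 (adjusted p = 0.0165), a call lost without non-transfected replicate 1 or 2 (adjusted p = 0.0615 and 0.0554).

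CCNA2 and CDK1, described here because of their values, showed other patterns. CCNA2, the cyclin of S phase and early mitosis, read 7.11, 6.72 and 6.90 in non-transfected cells, 8.20, 7.75 and 7.89 with the negative control and 7.84, 7.67 and 8.06 with miR-520f. Both mimic groups lay above non-transfected cells and overlapped each other. CCNA2 rose 1.93-fold with miR-520f (adjusted p = 0.000434) and 2.05-fold with the negative control (adjusted p = 0.00069) against non-transfected cells, and the difference between the mimics was -0.09 (95% interval -0.40 to 0.22, adjusted p = 0.71). CDK1, the kinase itself, read 7.37, 7.31 and 7.21, then 7.36, 8.11 and 8.31, then 8.49, 8.22 and 8.78 in the same group order. Negative control replicate 1 was at the non-transfected level and the other two were near the miR-520f arrays. CDK1 rose 2.30-fold against non-transfected cells (adjusted p = 0.0014), while its difference of 0.57 from the negative control did not pass (95% interval 0.10 to 1.04, adjusted p = 0.0716). That difference passed without negative control replicate 3 (adjusted p = 0.0179), and the difference of 0.63 between negative control and non-transfected cells, adjusted p = 0.0739, passed without negative control replicate 1 (adjusted p = 0.00209).

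**Figure D2:**
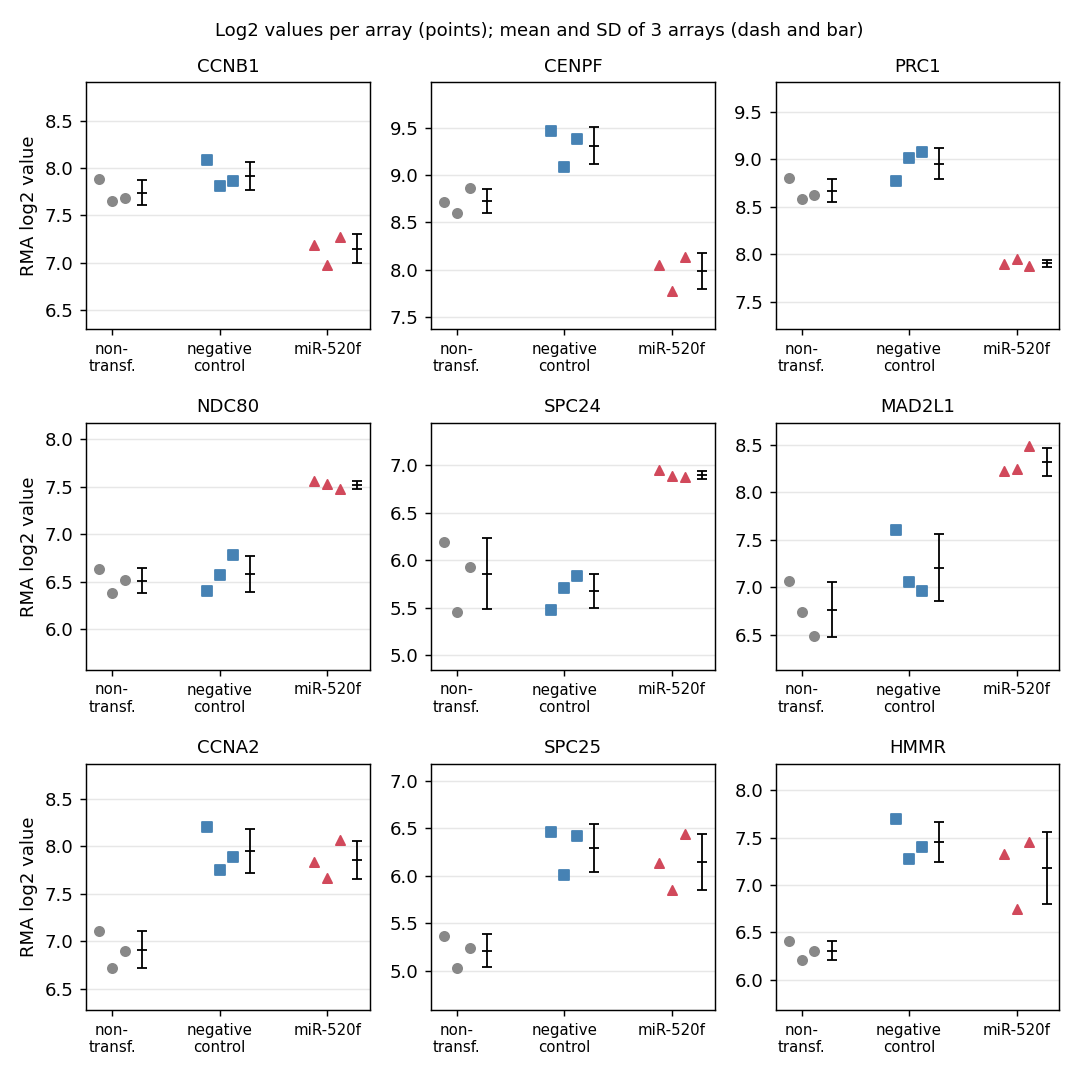
The log2 signal of 9 genes is plotted for each array (points) with the group mean and SD (dash and bar, n = 3), for non-transfected, negative control and miR-520f cells. CCNB1, CENPF and PRC1 have their lowest points with miR-520f, and CCNA2 has similar points under both mimics.

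The kinetochore genes contained the largest fall of any member against the negative control. CENPF, a large coiled-coil protein of the outer kinetochore corona that binds microtubules and dynein partners, was measured by probe set 2379863. It read 8.72, 8.60 and 8.86 in non-transfected cells, 9.46, 9.09 and 9.37 with the negative control and 8.06, 7.78 and 8.14 with miR-520f. The groups did not overlap: the negative control was highest and miR-520f lowest. CENPF fell by 0.73 (SE 0.12, adjusted p = 0.000887) against non-transfected cells and by 1.32 (SE 0.12, adjusted p = 1.41e-05) against the negative control, to 0.601 and 0.402 of the control signals. It rose 1.50-fold with the negative control against non-transfected cells (adjusted p = 0.00807), a call that did not pass in a fit without moderation (adjusted p = 0.0616).

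The NDC80 complex, which makes the microtubule contact of the kinetochore, has 4 subunits, all measured, and all 4 rose against non-transfected cells. Of all genes, 14.5% did. NDC80 (probe set 3776139) read 6.64, 6.38 and 6.52 in non-transfected cells, 6.40, 6.57 and 6.78 with the negative control and 7.56, 7.52 and 7.48 with miR-520f. The control groups overlapped and the miR-520f arrays stood above both. NDC80 rose 2.01-fold against non-transfected cells (log2 1.01, SE 0.10, adjusted p = 2.73e-05) and 1.92-fold against the negative control (adjusted p = 4.27e-05), with 0.07 between the controls (95% interval -0.15 to 0.29). SPC24 (probe set 3850660), the subunit at the centromere end of the complex, read 6.19, 5.45 and 5.93, then 5.48, 5.71 and 5.84, then 6.95, 6.88 and 6.87. The miR-520f arrays were again the highest, with overlap between the controls. SPC24 rose 2.06-fold (adjusted p = 0.000504) and 2.34-fold (adjusted p = 0.000153) against non-transfected cells and the negative control.

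Its partner SPC25, picked out after its values were seen, differed from SPC24 in the negative control arrays. SPC25 read 5.37, 5.03 and 5.24 in non-transfected cells, 6.47, 6.01 and 6.42 with the negative control and 6.14, 5.85 and 6.44 with miR-520f. Both mimic groups were above non-transfected cells and overlapped. SPC25 differed from the negative control by -0.15 (95% interval -0.51 to 0.20, adjusted p = 0.562), rose by 0.93 with miR-520f against non-transfected cells (adjusted p = 0.00118) and rose 2.12-fold with the negative control (adjusted p = 0.00113). NUF2, the binding partner of NDC80, rose by 0.94 against non-transfected cells (adjusted p = 0.00011) and differed by 0.30 from the negative control (95% interval 0.05 to 0.55, adjusted p = 0.0795, and 0.0179 without miR-520f replicate 2). NUF2 was higher by 0.64 with the negative control than in non-transfected cells (adjusted p = 0.00351).

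CENPA, the histone H3 variant that marks centromeres, rose by 0.72 against non-transfected cells (adjusted p = 0.00333). Its difference from the negative control was 0.38 (adjusted p = 0.0838, and 0.00567 without negative control replicate 1). CENPE, a kinesin motor that moves chromosomes to the spindle equator, differed by 0.55 from non-transfected cells and did not pass (adjusted p = 0.07). It passed under 6 of 17 alternative settings, among them without negative control replicate 1 (0.045), negative control replicate 2 (0.037) or miR-520f replicate 2 (0.0179). Of the 7 centromere and outer kinetochore genes, 5 rose and 1 fell against non-transfected cells, 2 rose and 1 fell against the negative control, and 3 were higher with the negative control than in non-transfected cells. Over all genes 14.5% rose and 13.1% fell against non-transfected cells, and 7.00% were higher with the negative control than in non-transfected cells. Against the negative control 15.4% of all genes rose and 12.6% fell, so with 7 genes the 2 and 1 are not far from the background.

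Cytokinesis held the third member that fell. PRC1, which bundles the antiparallel microtubules of the central spindle, was measured by probe set 3639031. It read 8.80, 8.59 and 8.62 in non-transfected cells, 8.77, 9.01 and 9.08 with the negative control and 7.90, 7.95 and 7.87 with miR-520f. The miR-520f arrays were the lowest and lay close together, and the control groups overlapped. PRC1 fell by 0.77 (SE 0.09, adjusted p = 0.000107) and by 1.05 (SE 0.09, adjusted p = 1.12e-05) against non-transfected cells and the negative control, to 0.588 and 0.484 of their signals. Its difference between the controls was 0.28 (adjusted p = 0.0676), which passed without non-transfected replicate 1 (0.0429) or negative control replicate 1 (0.0124).

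The other 2 cytokinesis genes did not fall against either control. ANLN, the anillin scaffold of the contractile ring, rose by 0.52 against non-transfected cells (adjusted p = 0.00187) and by 0.66 with the negative control (adjusted p = 0.00107), and the mimics differed by -0.14 (95% interval -0.35 to 0.07, adjusted p = 0.357). ECT2, the exchange factor that activates RhoA at the cell equator, differed by 0.29 from non-transfected cells (adjusted p = 0.139, and 0.0238 without miR-520f replicate 2) and by -0.21 from the negative control (adjusted p = 0.296, and 0.0458 without miR-520f replicate 3). ECT2 was higher by 0.49 with the negative control than in non-transfected cells (adjusted p = 0.0241), a call lost without non-transfected replicate 1 (0.0662) or 2 (0.0965) or negative control replicate 1 (0.0675) or 3 (0.0531).

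In the spindle checkpoint, MAD2L1 had the largest rise of any member over non-transfected cells. It encodes MAD2, which binds CDC20 and so restrains the anaphase-promoting complex. MAD2L1 (probe set 2783715) read 7.06, 6.74 and 6.49 in non-transfected cells, 7.61, 7.05 and 6.96 with the negative control and 8.22, 8.25 and 8.48 with miR-520f. The miR-520f arrays lay above both control groups, which overlapped. MAD2L1 rose 2.94-fold (log2 1.56, SE 0.18, adjusted p = 6.78e-05) and 2.16-fold (adjusted p = 0.000663) against non-transfected cells and the negative control. BUB1 (probe set 2570616), a checkpoint kinase that marks the inner centromere, read 9.27, 9.01 and 9.21, then 9.52, 9.34 and 9.38, then 9.81, 9.69 and 9.96. The groups were ordered without overlap from non-transfected to negative control to miR-520f. BUB1 rose by 0.66 (adjusted p = 0.000404) and 0.40 (adjusted p = 0.00846), and its difference of 0.25 between the controls did not pass (adjusted p = 0.116).

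BUB3, the WD-repeat partner of BUB1, was the single member that fell with the negative control, and it is described for that value. It read 9.99, 10.03 and 9.97 in non-transfected cells, 9.28, 9.57 and 9.57 with the negative control and 10.17, 10.22 and 10.16 with miR-520f. The negative control arrays were the lowest, and the non-transfected and miR-520f arrays lay close together without overlap. BUB3 fell by 0.53 with the negative control against non-transfected cells (adjusted p = 0.00202). With miR-520f it was higher than the negative control by 0.71 (SE 0.09, adjusted p = 9.45e-05), and its difference from non-transfected cells was 0.18 (adjusted p = 0.155, and 0.035 without negative control replicate 1). TTK, the MPS1 kinase at the head of the checkpoint, rose by 0.99 against non-transfected cells (adjusted p = 9.64e-05) and by 0.77 with the negative control (adjusted p = 0.00148), and the mimics differed by 0.22 (95% interval -0.04 to 0.49, adjusted p = 0.211). ZWINT, which links the checkpoint to the kinetochore, rose by 0.97 with miR-520f against non-transfected cells (adjusted p = 0.000214). With the negative control ZWINT rose by 0.67 against non-transfected cells (adjusted p = 0.00572). The mimics differed by 0.30 in ZWINT (adjusted p = 0.118, and 0.0253 without miR-520f replicate 3).

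The chromosomal passenger complex corrects faulty microtubule attachments, and the 3 of its genes among the members rose against both controls. Of all genes, 9.37% were called higher in this way. INCENP, the scaffold of the complex, belongs to a wider list below and did not pass, with 0.06 against non-transfected cells (adjusted p = 0.666) and -0.11 against the negative control (adjusted p = 0.273). CDCA8, the borealin subunit (probe set 2330773), read 7.01, 6.63 and 6.87 in non-transfected cells, 7.64, 7.23 and 7.27 with the negative control and 8.00, 7.54 and 8.08 with miR-520f. Both mimic groups were above non-transfected cells, and replicate 2 of miR-520f lay below replicate 1 of the negative control. CDCA8 rose by 1.04 against non-transfected cells (adjusted p = 0.000524). Its rise of 0.50 against the negative control (adjusted p = 0.0373) was lost under 8 of 17 alternatives, with an adjusted p of 0.0518 without non-transfected replicate 3, 0.12 or 0.10 without negative control replicate 2 or 3, and 0.128 or 0.148 without miR-520f replicate 1 or 3. The rise of 0.54 with the negative control (adjusted p = 0.0417) was also lost under 8 alternatives, among them without non-transfected replicate 2 (0.163) or 3 (0.0881), negative control replicate 1 (0.125) or 2 (0.0501), or miR-520f replicate 1 (0.054).

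BIRC5, which encodes survivin, had 2 probe sets. The brighter one, 3736290, read 8.04, 7.96 and 7.89 in non-transfected cells, 7.68, 7.96 and 8.18 with the negative control and 8.40, 8.40 and 8.41 with miR-520f. The miR-520f arrays were the highest and nearly identical. BIRC5 rose by 0.44 against non-transfected cells (adjusted p = 0.011) and by 0.46 against the negative control (adjusted p = 0.00785), the first of which did not pass in a fit without moderation (0.0532). The dimmer probe set had group means of 4.70, 4.96 and 5.11 in the order non-transfected, negative control, miR-520f. AURKB, the kinase of the complex, rose by 0.63 (adjusted p = 0.000536) and 0.36 (adjusted p = 0.0146), and the second call was lost without miR-520f replicate 1 (0.0569). Its difference of 0.26 between the controls (adjusted p = 0.10) passed without non-transfected replicate 1 (0.0201).

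**Figure D3:**
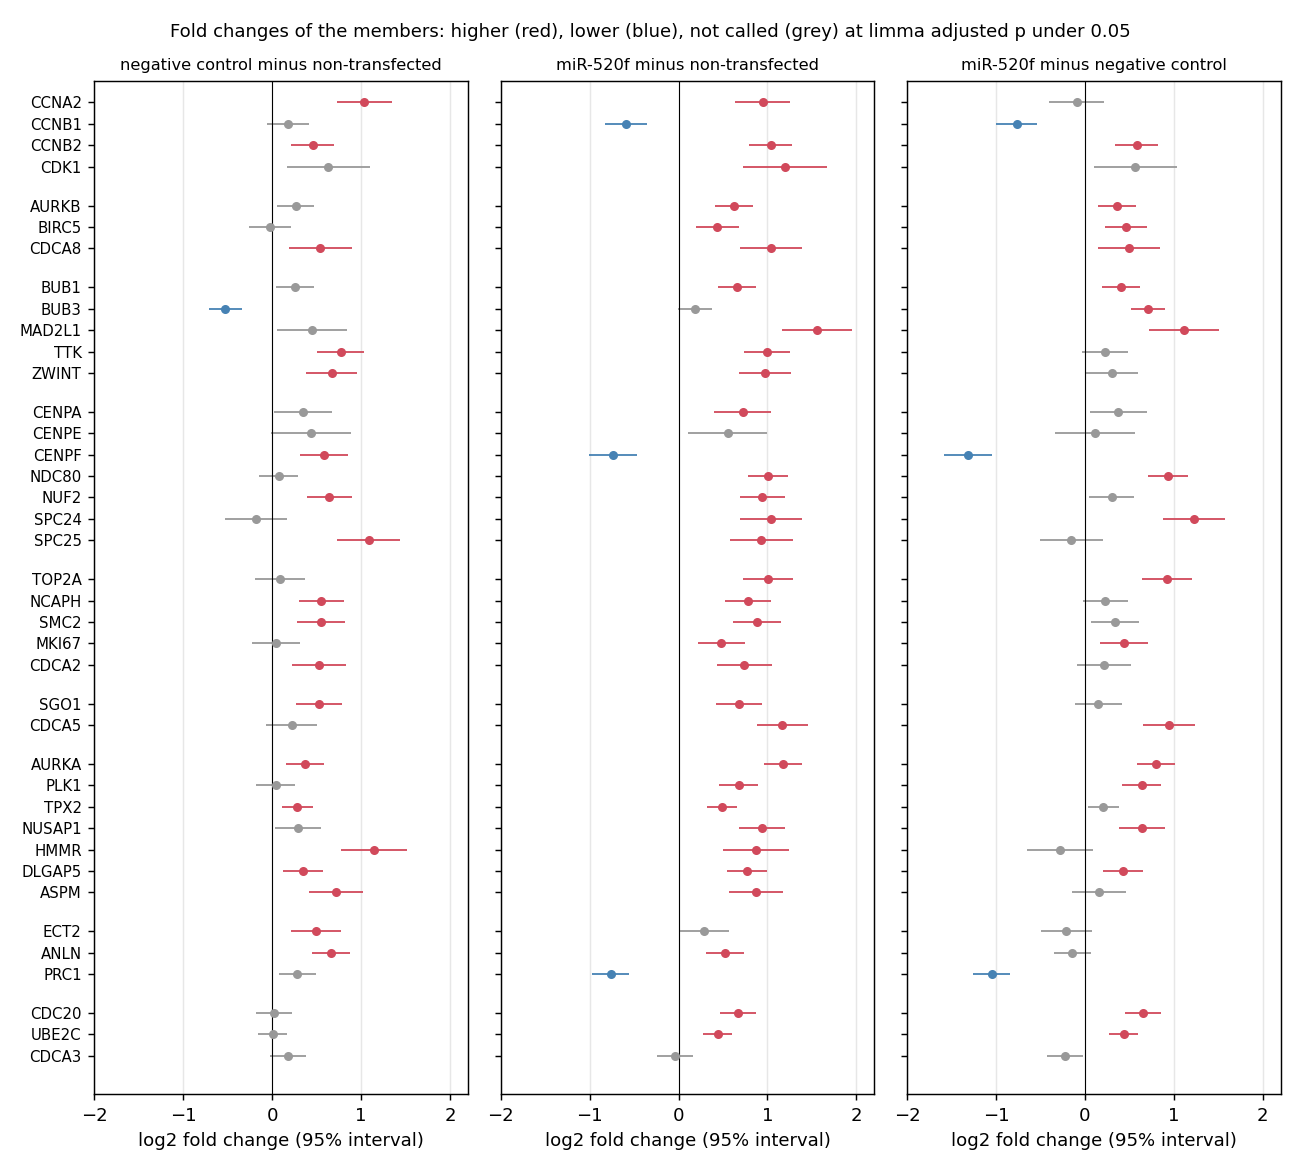
The log2 difference of each of the 39 genes is plotted with its 95% interval in 3 panels, 1 per comparison, in rows ordered by role, red where called higher, blue where called lower and grey where not called. The values run from -0.77 to 1.56 between miR-520f and non-transfected cells, from -1.32 to 1.23 between the mimics and from -0.53 to 1.15 between the control groups.

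The 7 spindle assembly genes all rose against non-transfected cells, 4 of them also against the negative control. With the negative control, 5 were higher than in non-transfected cells. The shares of all genes called higher in these 3 comparisons were 14.5%, 15.4% and 7.00%. AURKA (probe set 3910785), the centrosomal Aurora kinase, read 7.76, 7.52 and 7.89 in non-transfected cells, 8.07, 8.09 and 8.12 with the negative control and 8.81, 8.88 and 9.00 with miR-520f. The groups rose in that order without overlap. AURKA rose 2.25-fold (log2 1.17, SE 0.10, adjusted p = 7.06e-06) and 1.74-fold (adjusted p = 9.86e-05). The rise of 0.37 with the negative control (adjusted p = 0.0237) was lost without non-transfected replicate 2 (0.0976) or negative control replicate 2 (0.0602) or 3 (0.0558).

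NUSAP1 (probe set 3590388), which bundles microtubules around chromosomes, read 8.54, 8.46 and 8.68, then 8.75, 8.70 and 9.11, then 9.46, 9.37 and 9.65. Its miR-520f arrays were the highest, and the control groups were barely apart. NUSAP1 rose by 0.94 (adjusted p = 0.000129) and 0.65 (adjusted p = 0.00157). PLK1, the polo kinase of mitotic entry and exit, rose by 0.68 (adjusted p = 0.000363) and 0.64 (adjusted p = 0.00051), with 0.04 between the controls (adjusted p = 0.9). DLGAP5, a microtubule-stabilising target of AURKA, rose by 0.77 (adjusted p = 0.000184) and 0.43 (adjusted p = 0.0079). The rise of DLGAP5 with the negative control, 0.34 (adjusted p = 0.0439), was lost under 12 of 17 alternatives, among them the omission of each array except negative control replicate 1, with adjusted p up to 0.121.

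HMMR, chosen after its values were seen, encodes a spindle-pole protein and was highest with the negative control. It read 6.41, 6.21 and 6.31 in non-transfected cells, 7.69, 7.27 and 7.39 with the negative control and 7.32, 6.74 and 7.46 with miR-520f. The mimic groups overlapped and both lay above non-transfected cells. HMMR rose 2.21-fold with the negative control (adjusted p = 0.00109) and by 0.87 on the log2 scale with miR-520f (adjusted p = 0.00248), and the mimics differed by -0.28 (95% interval -0.65 to 0.09, adjusted p = 0.282). ASPM, which focuses spindle poles, rose by 0.87 with miR-520f (adjusted p = 0.000624) and 0.72 with the negative control (adjusted p = 0.00509), with 0.16 between the mimics (adjusted p = 0.482). TPX2, the activator of AURKA on the spindle, rose by 0.49 with miR-520f against non-transfected cells (adjusted p = 0.000729), and its difference from the negative control was 0.21 (adjusted p = 0.0746, and 0.0134 without negative control replicate 3). The rise of TPX2 with the negative control, 0.28 (adjusted p = 0.0335), was lost without any 1 of non-transfected replicates 1 (0.0797), 2 (0.121) and 3 (0.0595), negative control replicate 3 (0.0958) or miR-520f replicate 1 (0.0599).

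All 5 chromosome structure genes rose against non-transfected cells, and TOP2A and MKI67 also against the negative control. Of all genes, 14.5% and 15.4% rose in these comparisons. TOP2A (probe set 3756193), the topoisomerase that untangles sister chromatids, read 9.56, 9.65 and 9.80 in non-transfected cells, 9.49, 9.75 and 10.03 with the negative control and 10.66, 10.58 and 10.80 with miR-520f. The miR-520f arrays stood apart, and the control groups overlapped. TOP2A rose 2.02-fold (adjusted p = 0.000132) and 1.89-fold (adjusted p = 0.000246). MKI67 (probe set 3312490), the Ki-67 protein that coats mitotic chromosomes, read 8.96, 9.02 and 9.09, then 8.77, 9.09 and 9.35, then 9.48, 9.47 and 9.57. The miR-520f arrays were the highest, with negative control replicate 3 next.

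MKI67 rose by 0.48 (adjusted p = 0.0116) and 0.44 (adjusted p = 0.0185). The second call was lost without miR-520f replicate 3 (0.0669), and both were lost in a fit without moderation (0.0628 and 0.0818). The condensin subunits NCAPH and SMC2 rose by 0.78 (adjusted p = 0.000404) and 0.88 (adjusted p = 0.00027) against non-transfected cells. NCAPH differed by 0.23 from the negative control (adjusted p = 0.182, and 0.0162 without negative control replicate 1) and rose by 0.55 with the negative control against non-transfected cells (adjusted p = 0.0081). SMC2 differed by 0.34 from the negative control (adjusted p = 0.0655, which passed without negative control replicate 3, at 0.00666, or miR-520f replicate 2, at 0.0448). Its rise of 0.55 with the negative control (adjusted p = 0.0117) was lost without non-transfected replicate 2 (0.0534). CDCA2, a phosphatase-targeting protein of anaphase chromatin, rose by 0.74 with miR-520f against non-transfected cells (adjusted p = 0.00202) and differed by 0.21 from the negative control (adjusted p = 0.323, and 0.00426 without negative control replicate 1). Its rise of 0.53 with the negative control (adjusted p = 0.0258) was lost without non-transfected replicate 2 (0.0875) or 3 (0.0722).

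Of the cohesion protectors, CDCA5 rose against both controls and SGO1 against non-transfected cells. CDCA5 (probe set 3377423) encodes sororin, which keeps sister chromatids together, and read 7.41, 6.92 and 7.15 in non-transfected cells, 7.14, 7.45 and 7.54 with the negative control and 8.39, 8.25 and 8.33 with miR-520f. The control groups overlapped, well below the miR-520f arrays. CDCA5 rose 2.24-fold (adjusted p = 6.14e-05) and 1.93-fold (adjusted p = 0.00025). SGO1, the shugoshin that shields centromeric cohesin, rose by 0.68 with miR-520f (adjusted p = 0.00129) and 0.53 with the negative control (adjusted p = 0.0118), the latter lost without non-transfected replicate 2 (0.056), and the mimics differed by 0.15 (adjusted p = 0.428).

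The anaphase-promoting complex activator CDC20 and its ubiquitin-conjugating enzyme UBE2C rose by similar amounts against either control. CDC20 (probe set 2333136) read 10.33, 10.11 and 10.22 in non-transfected cells, 10.42, 10.16 and 10.14 with the negative control and 10.94, 10.87 and 10.86 with miR-520f. The control groups overlapped and miR-520f lay above them. CDC20 rose by 0.67 (adjusted p = 0.000249) and 0.65 (adjusted p = 0.000297). UBE2C (probe set 3887049) read 5.89, 5.98 and 5.93, then 5.86, 5.95 and 6.02, then 6.38, 6.46 and 6.30, and rose by 0.44 against each control (adjusted p = 0.000965 and 0.000996). Its control groups also overlapped, with the miR-520f arrays above them. CDCA3, an F-box protein that promotes mitotic entry, differed by -0.04 from non-transfected cells (adjusted p = 0.824) and by -0.22 from the negative control (adjusted p = 0.099, and 0.0496 without non-transfected replicate 3).

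The promoters of CCNB1 and CENPF, which fell, are shown beside those of MAD2L1, SPC24 and CDCA5, which rose, to let the late cell cycle elements be compared. Each is 130 bases of RefSeq sequence (GRCh38.p14), 5′ to 3′ on the gene's strand, from 100 bases before the start to 30 bases after it. Capitals mark the letters searched, which were the CHR forms TTTGAA and TTTAAA and the CCAAT box. Other forms of the CHR were not searched, so a stretch without capitals may still hold one. Both strands were searched, so TTCAAA and ATTGG are also matches. No 2 matches overlap in these stretches.
CCNB1 (chr5:69167050-69167179, plus strand): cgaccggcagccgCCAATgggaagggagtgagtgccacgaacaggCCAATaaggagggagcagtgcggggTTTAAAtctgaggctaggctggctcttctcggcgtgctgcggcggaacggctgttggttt
CENPF (chr1:214603095-214603224, plus strand): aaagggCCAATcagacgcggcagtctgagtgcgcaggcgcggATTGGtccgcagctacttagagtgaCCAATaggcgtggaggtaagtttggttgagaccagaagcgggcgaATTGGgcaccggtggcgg
MAD2L1 (chr4:120066819-120066948, minus strand): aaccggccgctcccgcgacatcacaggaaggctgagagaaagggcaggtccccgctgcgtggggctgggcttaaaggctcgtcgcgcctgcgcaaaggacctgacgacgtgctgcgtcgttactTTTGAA
SPC24 (chr19:11155753-11155882, minus strand): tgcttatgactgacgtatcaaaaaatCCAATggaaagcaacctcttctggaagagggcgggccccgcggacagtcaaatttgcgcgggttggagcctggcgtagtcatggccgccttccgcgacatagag
CDCA5 (chr11:65084011-65084140, minus strand): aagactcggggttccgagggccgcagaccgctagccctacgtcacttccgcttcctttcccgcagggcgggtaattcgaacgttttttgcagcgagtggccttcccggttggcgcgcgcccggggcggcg

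In these stretches CCNB1 holds 2 CCAAT boxes and TTTAAA, CENPF holds 4 CCAAT matches, MAD2L1 holds TTTGAA, SPC24 holds 1 CCAAT box and CDCA5 holds none of the letters searched. CENPF has TTTGAA at positions 41 to 46 after its start, outside the stretch shown. Of the 39 genes, 32 had a promoter window in the RefSeq table. The 27305 genes of that table have 35116 windows, and a gene counted if any of its windows matched, so the shares are per gene. Within 250 bases before to 50 after the start, 81.2% of these 32 held a searched CHR form and 81.2% a CCAAT box. Of the 27305 genes with a window, 27.9% and 39.7% did. Both elements were held by 65.6% of the 32 and 11.2% of all genes. PRC1, CCNB1 and CENPF each held both, and so did 9 of the 14 genes with a window that rose against both controls. In the shorter window from 100 bases before the start, 53.1% of the 32 and 3.44% of all genes held both. A match is a run of letters and does not show that a factor binds.

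The wider pathway was read through 6 lists of other mitotic genes, 88 measured genes in all. The lists too were chosen with earlier results of these data known. Against non-transfected cells 53 of the 88 rose and 4 fell, against the negative control 29 rose and 11 fell, and with the negative control against non-transfected cells 34 rose and 2 fell, at median differences of 0.47, 0.16 and 0.24. Over all genes 14.5% rose and 13.1% fell, 15.4% rose and 12.6% fell, and 7.00% rose and 8.28% fell in these comparisons, so the 11 lower genes against the negative control are at the background share. The centromere and kinetochore list had 17 of 23 genes higher and 0 lower than non-transfected cells, and 9 higher and 1 lower than the negative control. Its leading genes were MIS18A and OIP5, both needed to load CENPA, with rises of 1.26 and 1.36 against non-transfected cells and 1.01 and 0.84 against the negative control.

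Condensin and cohesin genes rose in 14 of 17 cases against non-transfected cells and in 6 of 17 against the negative control, with 0 lower in either. Over all genes 14.5% rose and 13.1% fell against non-transfected cells, and 15.4% rose and 12.6% fell against the negative control. With 17 genes, 0 lower is not far from the background. ESPL1, the separase that cleaves cohesin, rose by 0.88 and 0.69. STAG2, a cohesin subunit, was 1.03 above non-transfected cells and 2.02 above the negative control (both called), and fell by 0.98 with the negative control against non-transfected cells. The 6 measured regulators of G2 and M transcription rose in 5 cases against non-transfected cells and in 6 against the negative control. They include MYBL2 (1.02 and 0.74) and FOXM1 (0.55 and 0.46), which act at CHR promoters, and NFYB (0.89 and 1.16), a subunit of the CCAAT-binding factor NF-Y.

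The remaining lists were mixed. Of 13 genes of the anaphase-promoting complex and its regulators, 3 rose and 1 fell against each control, among them ANAPC10 (0.70 and 0.49) and ANAPC5 (-0.49 and -0.53), both subunits of the complex. These counts are near the all-gene shares (14.5% and 13.1%, 15.4% and 12.6%). Of 19 spindle, centrosome and cytokinesis genes, 9 rose and 2 fell against non-transfected cells, and 2 rose and 6 fell against the negative control, where 15.4% and 12.6% of all genes did. The largest falls in that list were TUBG1, the gamma-tubulin that nucleates microtubules, with -1.97 and -1.84, and NUMA1, a spindle-pole organiser, with -0.80 and -1.01. Of 10 mitotic kinases, phosphatase regulators and CKS genes, 5 rose and 1 fell against non-transfected cells and 3 rose and 3 fell against the negative control. PBK, a mitotic kinase, fell by 1.72 and 2.11, and CKS2, a CDK-binding subunit, rose by 0.84 and 0.61. These lists were compared by their counts alone, with no test between them.

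**Figure D4:**
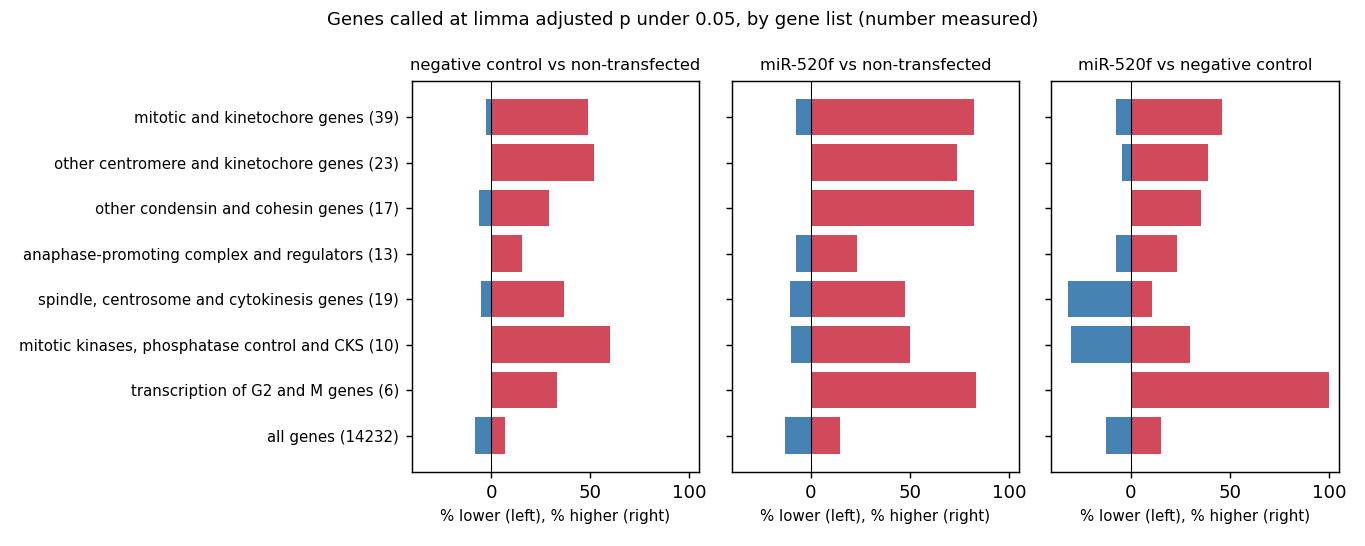
Bars give the percent of measured genes called higher (right) or lower (left) in each list, in the 39 mitotic and kinetochore genes and in all 14232 genes, for the 3 comparisons. The mitotic and kinetochore genes have 32 of 39 called higher against non-transfected cells, and the spindle, centrosome and cytokinesis list has 6 of 19 called lower against the negative control.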

How the data were processed

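RNA of PANC-1 cells was measured on 9 arrays in 3 groups of 3, grouped by the treatment label. The authors deposited log2 values for 22011 probe sets; Partek 6.6, RMA and build hg18 are named in the submitters' processing notes, without settings. RMA normalizes between arrays and compresses differences of dim probe sets. Probe sets with 1 symbol (14432) gave 14232 genes, keeping the brightest probe set of a gene on average. limma 3.58.1 (R 4.3.3) fitted group means on the 9 arrays (6 residual degrees of freedom), with Benjamini-Hochberg adjustment over all genes and a threshold of 0.05, after a check on simulated data. The 39 members, the 6 lists and the roles were chosen with earlier results of these data known. CCNB1 and CENPF were named beforehand as members that fall. Every measured member is named. Values on each array are given for members called lower and, per role, up to 2 with the largest smaller difference among those called against both controls; CCNA2, CDK1, SPC25, BUB3 and HMMR were added after their values were seen. Each list's 2 genes with the largest such difference are named, with FOXM1 and MYBL2. Promoters, chosen for CCNB1, CENPF and the 3 leading risers with a window, and microRNAs come from RefSeq (GRCh38.p14), so no coordinates of the array build are given. The 17 alternatives covered scaling, filtering, the fit, a replicate block and leaving out each array.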

Additional observations from a re-analysis of the deposited data

How the results depend on the processing

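Across 17 alternatives no member reversed direction where it was called. Of the members called against non-transfected cells with miR-520f, 33 of 35 kept the call under every alternative, and against the negative control 18 of 21. With the negative control against non-transfected cells 7 of 20 did. CCNB1, CENPF and PRC1 kept their calls against both controls under all 17. For the negative control against non-transfected cells, 2174 genes were called, 1287 in the unmoderated fit and 1394 to 2181 when each array was left out. Members called in that comparison numbered 20, with 7 in the unmoderated fit and 11 to 20 without 1 array. Those called higher numbered 19, with 6 and 10 to 19. Rescaling moved the median of all genes by at most 0.066. Replicate numbers are shared across groups. Deviations of same-numbered arrays correlated above 0.1 in 4 of 9 pairs (-0.0262 to 0.205), and 7 of 9 arrays correlated best with their own number. These values do not settle whether arrays of 1 number belong together, and the labels do not say. The main fit left the numbers out, and the replicate block was an alternative. With the replicate block, 37, 25 and 22 members were called in the 3 comparisons, against 35, 21 and 20. Calls over all genes also increased with the block, to 4060, 4159 and 2297, against 3927, 3996 and 2174. What passed depended on each gene's spread: CDK1 at 0.57 between the mimics (SE 0.21) did not pass, and AURKB at 0.36 did.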

Other observations

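In the spindle, centrosome and cytokinesis list, some centriole and spindle genes had their highest means with the negative control mimic. SASS6, a centriole cartwheel protein, was 1.02 higher with the negative control than in non-transfected cells (limma, adjusted p = 0.00064) and 0.52 lower with miR-520f than with the negative control (log2 difference -0.52, adjusted p = 0.0146). PLK4, the kinase that starts centriole duplication, differed by 0.74 (adjusted p = 0.00226) and -0.39 (adjusted p = 0.036) in the same comparisons, and HAUS8, an augmin subunit, by 0.62 (adjusted p = 0.00187) and -0.75 (adjusted p = 0.000189). CIT, the citron kinase of the midbody, showed the opposite signs, with -0.89 (adjusted p = 0.000131) and 1.57 (adjusted p = 6.46e-07). These genes were chosen after their values were seen, and both comparisons share the negative control arrays.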
